A study of Mus musculus with 6 samples.

Results

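The circadian clock genes described here are the 10 genes Per1, Per2, Per3, Cry1, Cry2, Arntl, Clock, Nr1d1, Nr1d2 and Dbp, chosen by symbol from the 55487 genes of the expression table. All 10 were found and all 10 passed the filter on low counts. The cells were RM-1, which is a prostate cancer line of the mouse, given either a lentivirus that overexpresses Bhlhe22 (Bhlhe22 cells, 3 libraries) or a blank lentiviral vector (vector cells, 3 libraries). The series ties Bhlhe22 to the immune environment of bone metastases, and the libraries compare the cancer cells with and without it. Both groups carry a lentivirus and were grown under the same stated conditions. The promoter of the lentivirus, and whether the cells were a pool or 1 clone, are not stated. Nor are the time of harvest or any step to synchronise the cells, so each library gives a level at an unstated time, and a change in mean level and a change in phase cannot be told apart.

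The mammalian clock is a loop of transcription factors. CLOCK and ARNTL (also called BMAL1) bind E-box DNA as a pair and switch on the Per, Cry, Nr1d and Dbp genes. PER and CRY proteins then inhibit that pair, and the nuclear receptors made from Nr1d1 and Nr1d2 (REV-ERB alpha and beta) repress Arntl and other genes through ROR elements, where the ROR receptors activate. Bhlhe22 is a basic helix-loop-helix factor, of the wider family that binds E-boxes.

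In Bhlhe22 cells 8 of the 10 clock genes passed the test, 5 higher and 3 lower. This compares with 19.6% of all 14663 tested genes, of which 10.4% were higher and 9.28% lower (edgeR quasi-likelihood test, Benjamini-Hochberg adjusted p under 0.05). Arntl, Per1, Per2, Cry1 and Cry2 were higher. Nr1d1, Nr1d2 and Per3 were lower, and Clock and Dbp did not pass. The median log2 fold change was 0.18 over the 10 genes, which changed in both directions, and 0.01 over all tested genes. The groups did not overlap in any of the 8 called genes, which held for 40.8% of all tested genes. In the fits that each left out 1 library, 4 or 5 of the 10 genes were called higher. Nr1d1 was the only gene called lower in each, except without Bhlhe22 replicate 1, where all 3 were called lower. Per3 and Nr1d2 kept a negative log2 fold change in all 6 of these fits.

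Promoter sequence was looked at because the clock acts on its own genes through short motifs. RefSeq windows from 250 bases before to 50 after a transcript start (GRCm38.p6) were found for 9 of the 10 genes, in 13 windows. Per2 had no entry. Both strands were searched for the E-box CACGTG, the related E′-box CACGTT, the D-box TTATGTAA and the ROR core AGGTCA. The E-box was in 2 of the 13 windows, of Cry1 and Per1, against 7.15% of all 32851 windows. The E′-box was in 3, of Cry1, Cry2 and Nr1d1, against 4.68%. The ROR core was in 4, of Arntl, Clock, Nr1d2 and Per1, against 16.3%. The D-box was in 1, that of Per3, against 0.938%. The broader pattern CANNTG, which takes in the E-box, was in 7 of the 13 windows, against 72.3% of all windows. Those 7 belong to 6 genes (Clock, Cry1, Cry2, Dbp, Nr1d1 and Per1). CATATG, another E-box form, was in no window of the 9 genes and in 3.91% of all windows. Matches are letters in a window, not sites shown to be bound.

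Upstream sequences of 3 genes and 1 short site are shown because they hold the motifs of the loop's main branches, with the motif in capitals. Cry1, which rose, has both E-box forms on chromosome 10 (chr10:85185065-85185304, minus strand), with the E′-box as its reverse complement. Nr1d1, which fell, has an E′-box, also as its reverse complement, next to its start (chr11:98775378-98775627, minus strand). Per3, which fell, has a pair of D-boxes (chr4:151044666-151044915, minus strand). Arntl, which rose, has a ROR core 32 bases after its second listed start (chr7:113207530-113207553, plus strand). All are 5′ to 3′, from RefSeq, and those of Cry1, Nr1d1 and Per3 stop before the first annotated exon base.
Cry1: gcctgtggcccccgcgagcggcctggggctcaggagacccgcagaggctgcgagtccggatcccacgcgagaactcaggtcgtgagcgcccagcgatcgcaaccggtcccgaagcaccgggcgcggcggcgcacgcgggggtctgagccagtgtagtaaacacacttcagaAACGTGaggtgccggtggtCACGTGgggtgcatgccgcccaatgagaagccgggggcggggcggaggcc
Nr1d1: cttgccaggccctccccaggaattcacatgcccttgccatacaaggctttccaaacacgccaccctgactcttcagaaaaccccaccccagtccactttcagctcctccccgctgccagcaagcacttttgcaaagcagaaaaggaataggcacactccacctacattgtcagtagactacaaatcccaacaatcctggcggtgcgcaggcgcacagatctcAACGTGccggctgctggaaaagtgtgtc
Per3: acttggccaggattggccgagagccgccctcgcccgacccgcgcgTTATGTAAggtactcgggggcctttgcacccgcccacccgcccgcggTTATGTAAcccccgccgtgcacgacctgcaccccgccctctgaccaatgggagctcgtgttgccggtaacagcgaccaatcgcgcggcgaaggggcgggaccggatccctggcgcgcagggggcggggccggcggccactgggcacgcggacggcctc
Arntl: aaggcagaaagtAGGTCAgggacg

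**Figure D1:**
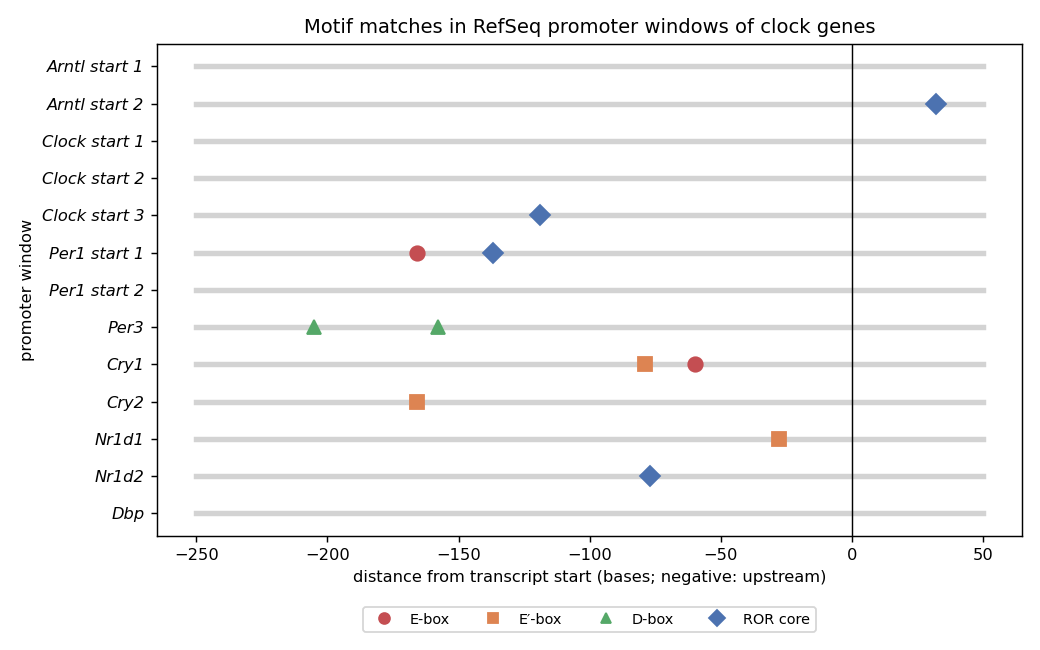
Motif matches in the 13 RefSeq promoter windows of 9 clock genes; the horizontal axis is the distance in bases from the transcript start, each grey line is a window and each symbol the first base of a match. Cry1 holds an E-box 60 bases and an E′-box 79 bases upstream, the Nr1d1 match lies 28 bases upstream and the D-boxes of Per3 lie 158 and 205 bases upstream.

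Total counts ranged from 15464709 to 25129552 per library, and the 10 genes had between 34 and 2898 counts in a library. Bhlhe22 had 0 counts in each vector library and 572 to 764 CPM in Bhlhe22 cells, as labelled (CPM, on TMM-scaled library sizes). Bhlhe22 replicate 1 stood apart. The longest 25% of tested genes were lower there than in the other Bhlhe22 libraries, by a median of -0.22 on the log2 scale, and the shortest 25% were higher, by 0.20. In the other 5 libraries these medians lay between -0.12 and 0.13. Gene lengths here are those implied by counts and FPKM. Of all genes 1520 rose and 1361 fell, but without that library 2345 rose and 2337 fell. Dropping any vector library or Bhlhe22 replicate 2 gave 715 to 908 higher and 633 to 803 lower genes. The epithelial keratins Krt8 (515 to 766 CPM) and Krt18 (609 to 757 CPM) were abundant and Epcam was at 3.40 to 4.67 CPM, while Cdh1 and Cldn4 reached at most 0.291 CPM and Krt5 had no counts. Of 8 leukocyte markers 5 had no counts in any library. Their summed level, nearly all from Ly6g, was 16.5 to 20.4 CPM in vector cells and 7.13 to 8.54 CPM in Bhlhe22 cells, and its part in the results was not tested. In such bulk RNA fewer cells expressing a gene and less RNA per cell cannot be told apart.

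Of the activator pair, Arntl rose and Clock did not pass the test. Arntl (ENSMUSG00000055116, chromosome 7, 113207465 to 113314126, plus strand, GRCm38) stood at 41.8, 44.0 and 42.5 CPM in vector replicates 1, 2 and 3. In Bhlhe22 replicates 1, 2 and 3 it stood at 58.3, 60.7 and 60.5 CPM. The groups did not overlap, and the spread within each was small beside the gap. Arntl rose 1.40-fold (log2 fold change 0.48, SE 0.07, edgeR adjusted p = 0.0043). Arntl is the loop's indispensable activator and a known target of the REV-ERB and ROR receptors.

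Clock (ENSMUSG00000029238, chromosome 5, 76209868 to 76304792, minus strand) encodes the partner of ARNTL. Its values were 47.1, 59.1 and 60.0 CPM in vector replicates 1, 2 and 3 and 23.6, 57.3 and 62.5 CPM in Bhlhe22 replicates 1, 2 and 3. Bhlhe22 replicate 1 was far below every other library, and the remaining Bhlhe22 values lay within or just above the vector range. The log2 fold change was -0.21 with a 95% interval from -1.0 to 0.59 (edgeR adjusted p = 0.72), so the data allow a change in either direction. The length implied by Clock's counts and FPKM, 22.2 kb, exceeds that of 98.1% of tested genes, and its annotated exons cover 13727 bases. In Bhlhe22 replicate 1 Clock differed by -1.32 on the log2 scale from the other Bhlhe22 libraries. Without that library the fold change turned to 0.11 (edgeR adjusted p = 0.53). With a correction for the length trend of each library it was -0.23 (edgeR adjusted p = 0.58).

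The Period genes, which encode the PER inhibitors, moved in different directions. Per1 (ENSMUSG00000020893, chromosome 11, 69095217 to 69109960, plus strand) was the most abundant. It stood at 70.2, 76.1 and 81.6 CPM in vector replicates 1, 2 and 3 and at 99.0, 93.4 and 115 CPM in Bhlhe22 replicates 1, 2 and 3. The groups were separate but each spread over more than 10 CPM. Per1 rose 1.35-fold (log2 fold change 0.43, SE 0.10, edgeR adjusted p = 0.025). In 4 of the 6 fits that each left out 1 library, Per1 was not called. Dropping vector replicate 1, 2 or 3 gave edgeR adjusted p of 0.109, 0.093 and 0.060, and dropping Bhlhe22 replicate 3 gave 0.057. Per1 was higher in all 6 fits, by 0.34 to 0.50 on the log2 scale. The 4 fits without its call also had fewer higher genes in all, 715 to 1182 against 1520 with every library. Losing the call there thus does not show that it rested on any 1 library.

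Per2 (ENSMUSG00000055866, chromosome 1, 91415982 to 91459324, minus strand) had the largest fold change of the 10 genes. Its levels were 5.21, 5.49 and 4.54 CPM in vector replicates 1, 2 and 3 and 8.87, 14.1 and 13.3 CPM in Bhlhe22 replicates 1, 2 and 3. The lowest Bhlhe22 value, in replicate 1, was still well above the highest vector value. The log2 fold change was 1.26 (SE 0.20, edgeR adjusted p = 0.0053), or 2.39-fold. It was 1.14 to 1.42 over the fits that each left out 1 library, and the call held in each.

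Per3 (ENSMUSG00000028957, chromosome 4, 151003652 to 151044665, minus strand) went the other way. Counts were low, at 119, 106 and 96 in vector replicates 1, 2 and 3 and 34, 71 and 81 in Bhlhe22 replicates 1, 2 and 3. In CPM these were 6.59, 5.15 and 4.49 against 2.23, 3.67 and 3.23. The groups did not overlap, but the nearest values, in vector replicate 3 and Bhlhe22 replicate 2, were close. The log2 fold change was -0.82 (SE 0.23) with an edgeR adjusted p of 0.047, just under the threshold. Of the 6 edgeR fits that left out 1 library, only that without Bhlhe22 replicate 1 kept the call (-0.66, adjusted p = 0.041). Dropping any other library gave adjusted p from 0.064 to 0.156, and limma-voom gave 0.050 when rounded, above the threshold. Nor was Per3 called in the limma fits on log2(FPKM + 1) and log2(FPKM + 0.1).

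**Figure D2:**
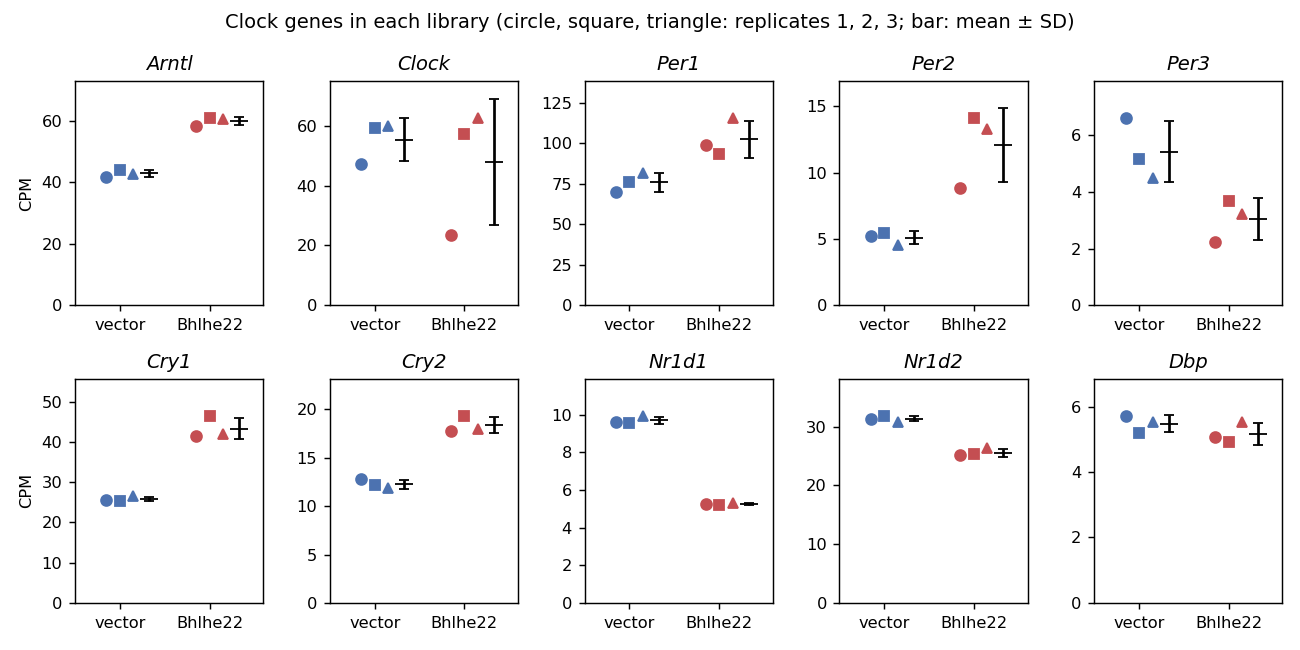
CPM of each of the 10 clock genes (vertical axes from 0) in vector and Bhlhe22 cells; each symbol is a library and the black bar is the mean ± SD of 3. Arntl, Per1, Per2, Cry1 and Cry2 lie higher and Per3, Nr1d1 and Nr1d2 lower in Bhlhe22 cells without overlap, and Clock shows Bhlhe22 replicate 1 at 23.6 CPM, below all other libraries.

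Both Cryptochrome genes rose. Their proteins are the stronger repressors of the CLOCK and ARNTL pair. Cry1 (ENSMUSG00000020038, chromosome 10, 85131700 to 85185064, minus strand) had the smallest adjusted p of the 10 genes. It stood at 25.6, 25.4 and 26.5 CPM in vector replicates 1, 2 and 3 and at 41.6, 46.4 and 42.0 CPM in Bhlhe22 replicates 1, 2 and 3. The vector values lay within about 1 CPM of each other and every Bhlhe22 value was far above them. Cry1 rose 1.68-fold (log2 fold change 0.75, SE 0.08, edgeR adjusted p = 0.0013).

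Cry2 (ENSMUSG00000068742, chromosome 2, 92403646 to 92434043, minus strand) was at 12.8, 12.2 and 11.9 CPM in vector replicates 1, 2 and 3. It was at 17.8, 19.3 and 18.0 CPM in Bhlhe22 replicates 1, 2 and 3. Again no values overlapped, and replicate 2 was the highest Bhlhe22 library for both genes. Cry2 rose as well (log2 fold change 0.58, SE 0.09, edgeR adjusted p = 0.0056). Of its exon bases 4.67% are shared with D930015M05Rik on the other strand, which had at most 7 counts in a library.

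The REV-ERB genes, which encode the repressors of Arntl, fell. Nr1d1 (ENSMUSG00000020889, chromosome 11, 98767932 to 98775333, minus strand) had close replicate values. It was at 9.59, 9.57 and 9.92 CPM in vector replicates 1, 2 and 3 and at 5.26, 5.22 and 5.30 CPM in Bhlhe22 replicates 1, 2 and 3. The gap between groups was many times the spread within them. The log2 fold change was -0.88 (SE 0.10, edgeR adjusted p = 0.0018), or 1.84-fold lower, and it stayed between -0.89 and -0.86 without each library in turn. Nr1d1 shares 8.55% of its exon bases with Thra, a thyroid hormone receptor gene on the other strand. Whether the counting used strand is not stated. Thra went from 61.7 ± 1.87 to 54.9 ± 1.41 CPM (SD, n = 3) and was not called (log2 fold change -0.17, edgeR adjusted p = 0.145).

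Nr1d2 (ENSMUSG00000021775, chromosome 14, 18204054 to 18239127, minus strand) changed less. It was at 31.4, 31.8 and 30.9 CPM in vector replicates 1, 2 and 3 and at 25.1, 25.3 and 26.4 CPM in Bhlhe22 replicates 1, 2 and 3. The groups were separate, with a log2 fold change of -0.29 (SE 0.08, edgeR adjusted p = 0.034). The direction held in every fit but the call did not. Of the 6 fits that left out 1 library, that without Bhlhe22 replicate 1 kept it (adjusted p = 0.023). Dropping any other library gave adjusted p from 0.065 to 0.124. With no filter on low counts it was 0.092.

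Dbp, which encodes a D-box activator and is a classical direct output of the CLOCK and ARNTL pair, did not pass the test. Dbp (ENSMUSG00000059824, chromosome 7, 45705088 to 45710203, plus strand) was at 5.71, 5.20 and 5.52 CPM in vector replicates 1, 2 and 3 and at 5.06, 4.91 and 5.54 CPM in Bhlhe22 replicates 1, 2 and 3. The groups overlapped. The log2 fold change was -0.08 with a 95% interval from -0.37 to 0.21 (edgeR adjusted p = 0.71). Of Dbp's exon bases 18.0% are shared with the sphingosine kinase gene Sphk2 on the other strand. Sphk2 rose from 38.0 ± 5.15 to 101 ± 11.1 CPM (SD, n = 3, log2 fold change 1.40, edgeR adjusted p = 6.5e-04). Its part in the Dbp counts was not tested.

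**Figure D3:**
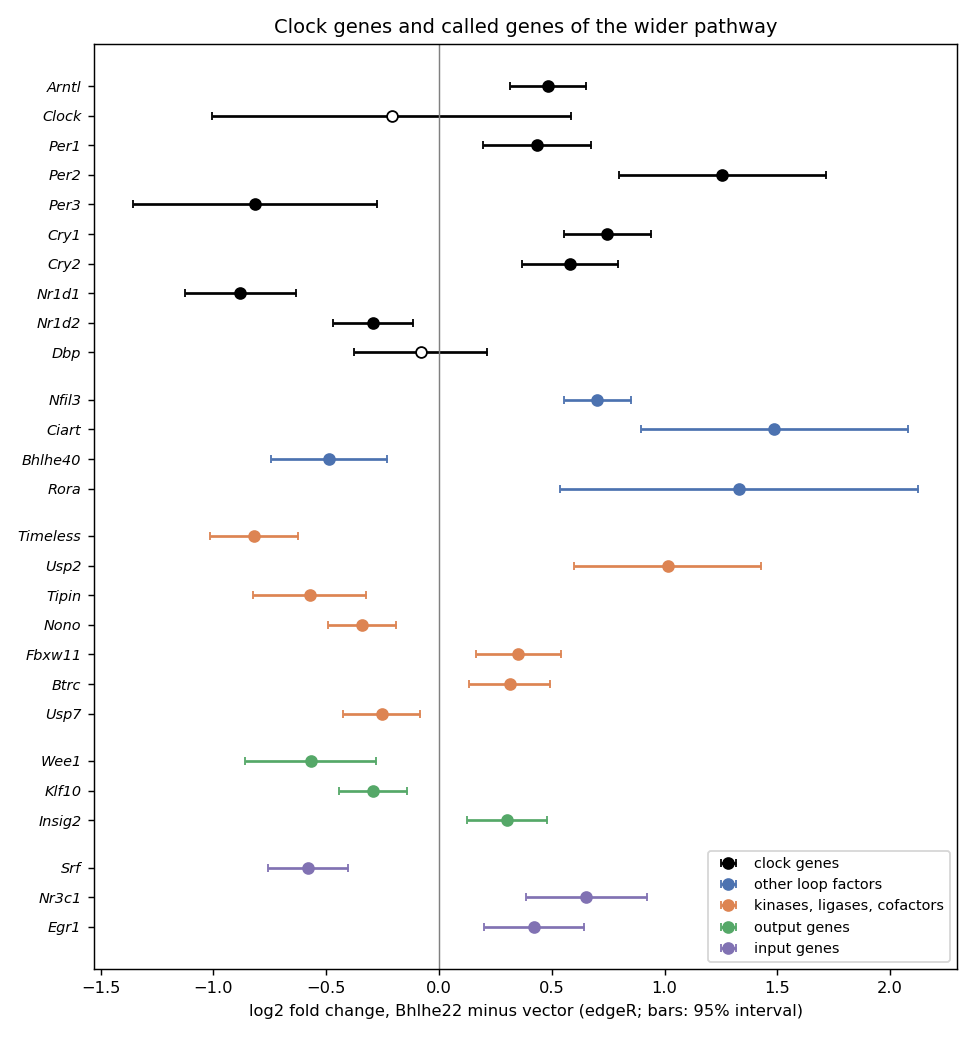
log2 fold change of Bhlhe22 minus vector cells (horizontal axis, edgeR, bars are 95% intervals) for the 10 clock genes in black and called genes of the wider pathway in colour; open symbols did not pass the test. Per2 has the largest rise of the clock genes at 1.26 and Nr1d1 the largest fall at -0.88.

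FPKM scales counts by depth and by 1 length per gene. That length exceeded the annotated exon bases unevenly, as for Clock (22241 against 13727), Dbp (5918 against 2993) and Per2 (5909 against 5856). The order of genes in FPKM rests on these lengths. In FPKM Per1 was the highest of the 10 in both groups, at 9.25 ± 0.702 in vector and 12.3 ± 1.45 in Bhlhe22 cells (SD, n = 3). In vector cells the levels then ran down through Cry1 (6.32), Arntl (5.07), Nr1d2 (4.59), Nr1d1 (2.79), Clock (2.51), Cry2 (1.79), Dbp (0.931), Per2 (0.865) and Per3 (0.429), in mean FPKM. Dbp and Per2 were the only neighbours in that order whose libraries overlapped. In Bhlhe22 cells Cry1 (10.4), Arntl (6.98) and Nr1d2 (3.69) kept the places below Per1. Cry2 (2.64), Clock (2.13), Per2 (2.03) and Nr1d1 (1.49) followed, and each of these overlapped its neighbour in the group of 4. Dbp (0.866) and Per3 (0.237) were lowest and did not overlap. Per2, which overlapped Dbp in vector cells, lay above it in FPKM in all Bhlhe22 libraries.

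Ratios taken within a library show how the balance between genes differed. Per2 over Per3 in FPKM was 1.70, 2.29 and 2.17 in vector replicates 1, 2 and 3 and 8.54, 8.27 and 8.87 in Bhlhe22 replicates 1, 2 and 3. Of the Bhlhe22 libraries, replicate 1 was lowest for both genes, and their ratio there was close to that of the other Bhlhe22 libraries. Cry1 over Cry2 moved little, from 3.53 ± 0.193 to 3.95 ± 0.0678 (SD, n = 3). Nr1d2 over Nr1d1 went from 1.65 ± 0.0561 to 2.48 ± 0.0521, as Nr1d1 fell more. Cry1 over Nr1d1 was 2.27, 2.26 and 2.27 in vector replicates 1, 2 and 3 and 6.73, 7.58 and 6.74 in Bhlhe22 replicates 1, 2 and 3. The groups did not overlap in any of the 7 ratios computed, and each gave p = 0.1 in a two-sided exact permutation test, the smallest that 3 against 3 libraries allow. These ratios use the same counts as the fold changes and add no independent evidence.

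**Figure D4:**
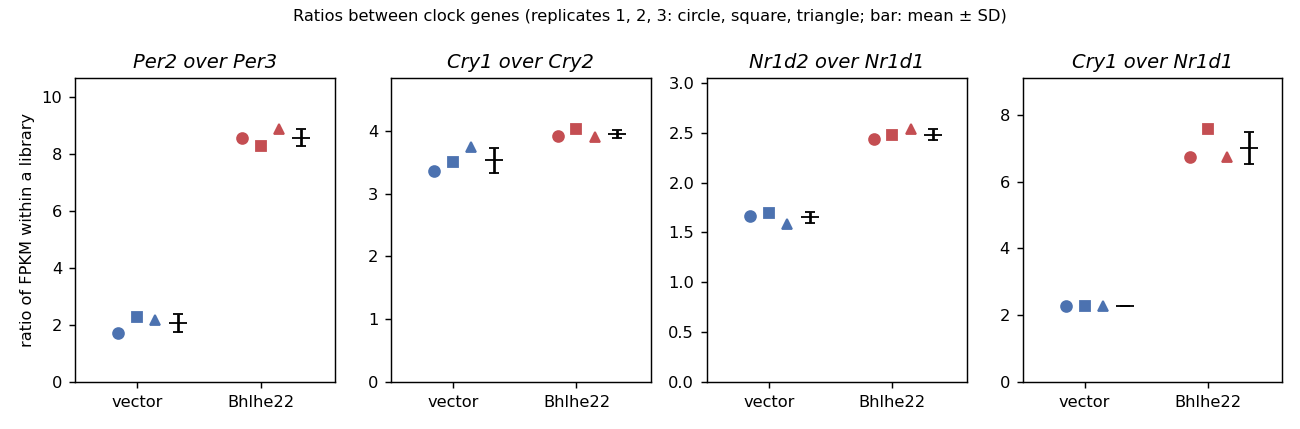
Ratios of FPKM between clock genes within a library (vertical axes from 0) in vector and Bhlhe22 cells; each symbol is a library and the black bar is the mean ± SD of 3. Per2 over Per3 lies between 1.70 and 2.29 in vector and between 8.27 and 8.87 in Bhlhe22 cells, and Cry1 over Cry2 shows the smallest shift.

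Summed over family members, Per FPKM went from 10.5 ± 0.567 to 14.6 ± 1.64, Cry FPKM from 8.11 ± 0.104 to 13.1 ± 0.770 and Nr1d FPKM from 7.38 ± 0.0363 to 5.18 ± 0.145 (SD, n = 3). Per1 made up 87.7% ± 2.00 of Period FPKM in vector and 84.5% ± 3.44 in Bhlhe22 cells, and the libraries of the groups overlapped in that share. Per2 rose from 8.24% ± 1.08 to 13.9% ± 3.05 of the sum, without overlap.

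The wider pathway was described with 63 further genes in 4 lists. Of these 59 were tested, 10 rose, 8 fell and 41 did not pass, so 30.5% were called, against 19.6% of all tested genes. Without Bhlhe22 replicate 1 there were 16 higher and 8 lower. Without any other single library there were 4 or 5 higher, and only 2 to 4 lower when any vector library or Bhlhe22 replicate 2 was dropped. Among the other transcription factors of the loops 4 of 10 tested genes rose and 1 fell. Nfil3, which encodes a D-box repressor controlled by the REV-ERB receptors, was at 79.7, 77.0 and 80.1 CPM in vector replicates 1, 2 and 3 and at 133, 127 and 126 CPM in Bhlhe22 replicates 1, 2 and 3 (log2 fold change 0.70, SE 0.06, edgeR adjusted p = 6.4e-04). Ciart, an inhibitor of the CLOCK and ARNTL pair, rose from 16.1, 19.5 and 9.31 CPM to 41.5, 46.7 and 37.6 CPM (log2 fold change 1.49, edgeR adjusted p = 0.0076). Both calls held without each library in turn. Rora, a ROR receptor gene named after its values were seen, rose from 4, 7 and 8 counts to 10, 19 and 19 (1.33, adjusted p = 0.033). Bhlhe40, which encodes the E-box repressor DEC1, fell from 76.5 ± 1.45 to 54.5 ± 7.59 CPM (log2 fold change -0.49, adjusted p = 0.022). Bhlhe40 lost its call when any 1 vector library or Bhlhe22 replicate 2 was dropped (edgeR adjusted p from 0.055 to 0.089). Rora was not called without any library but Bhlhe22 replicate 1 (0.073 to 0.112), and DESeq2 did not call it. Npas2, a paralogue of Clock, had a log2 fold change of 0.50 that did not pass (edgeR adjusted p = 0.13), and Arntl2 one of 0.02 (0.93).

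Among 21 kinases, ubiquitin ligases and cofactors that act on clock proteins 3 genes rose and 4 fell, which is 33.3% called, against 19.6% of all tested genes. The casein kinase genes Csnk1d and Csnk1e, which phosphorylate PER proteins, did not pass. The largest rise was in Usp2, a deubiquitinase gene under clock control, from 2.71 ± 0.289 to 5.45 ± 0.879 CPM (log2 fold change 1.01, edgeR adjusted p = 0.0083). Fbxw11 (0.35) and Btrc (0.31), which encode the ubiquitin ligase subunits that target PER proteins, were the other higher genes. The falls were in Timeless, from 56.6 ± 2.95 to 32.1 ± 1.63 CPM (log2 fold change -0.82, adjusted p = 9.5e-04), its partner Tipin (-0.57), the RNA-binding cofactor Nono (-0.34) and the deubiquitinase Usp7 (-0.25). Timeless and Tipin proteins are also known to act at DNA replication forks. Fbxw11, Btrc and Usp7 were named after their values were seen. The calls of Usp2 and Timeless held when any 1 library was dropped. Tipin was not called without vector replicate 1 or 2 (edgeR adjusted p from 0.051 to 0.052), nor Nono without any 1 vector replicate or Bhlhe22 replicate 2 (0.052 to 0.063). Usp7 was not called without these same libraries (0.131 to 0.155). Fbxw11 (0.062 to 0.106) and Btrc (0.081 to 0.113) were called only without Bhlhe22 replicate 1 among those 6 fits. That fit had 7 higher genes in this list.

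Of 14 tested output genes 1 rose, 2 fell and 11 did not pass, which is 21.4% called and near the 19.6% of all genes. Wee1, a kinase gene that restrains entry into mitosis, fell from 32.8 ± 1.22 to 22.0 ± 3.37 CPM (log2 fold change -0.57, edgeR adjusted p = 0.019). Klf10 fell by 0.29 on the log2 scale and Insig2, a regulator of sterol synthesis, rose by 0.30. Wee1 was not called without any 1 vector replicate (edgeR adjusted p from 0.067 to 0.079). Klf10 (0.053 to 0.086) and Insig2 (0.083 to 0.132) were called only without Bhlhe22 replicate 1 among the 6 fits. The input genes, which carry serum, cAMP and glucocorticoid signals to the Per genes, gave the same share, with 2 of 14 higher and 1 lower. The glucocorticoid receptor gene Nr3c1 rose from 63.4 ± 3.57 to 99.6 ± 14.0 CPM (0.65, adjusted p = 0.0085) and Srf, the serum response factor gene, fell from 102 ± 4.81 to 68.0 ± 3.79 CPM (-0.58, adjusted p = 0.0026), and both held without each library in turn. Egr1 rose by 0.42 on the log2 scale but was called only without Bhlhe22 replicate 1 among those fits (otherwise 0.057 to 0.096). Creb1, Crem, Fos and the CREB coactivator genes Crtc1, Crtc2 and Crtc3 did not pass.

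Among 11086 genes averaging 5 CPM or more, those most like Cry1 over the 6 libraries in log2 CPM were Plin2, Plcl2 and Ldlrad3, each with a Pearson r of 0.999 when rounded. With 2 separate groups such a value mostly reflects the difference between them, and 679 genes had an r above 0.95.

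**Figure D5:**
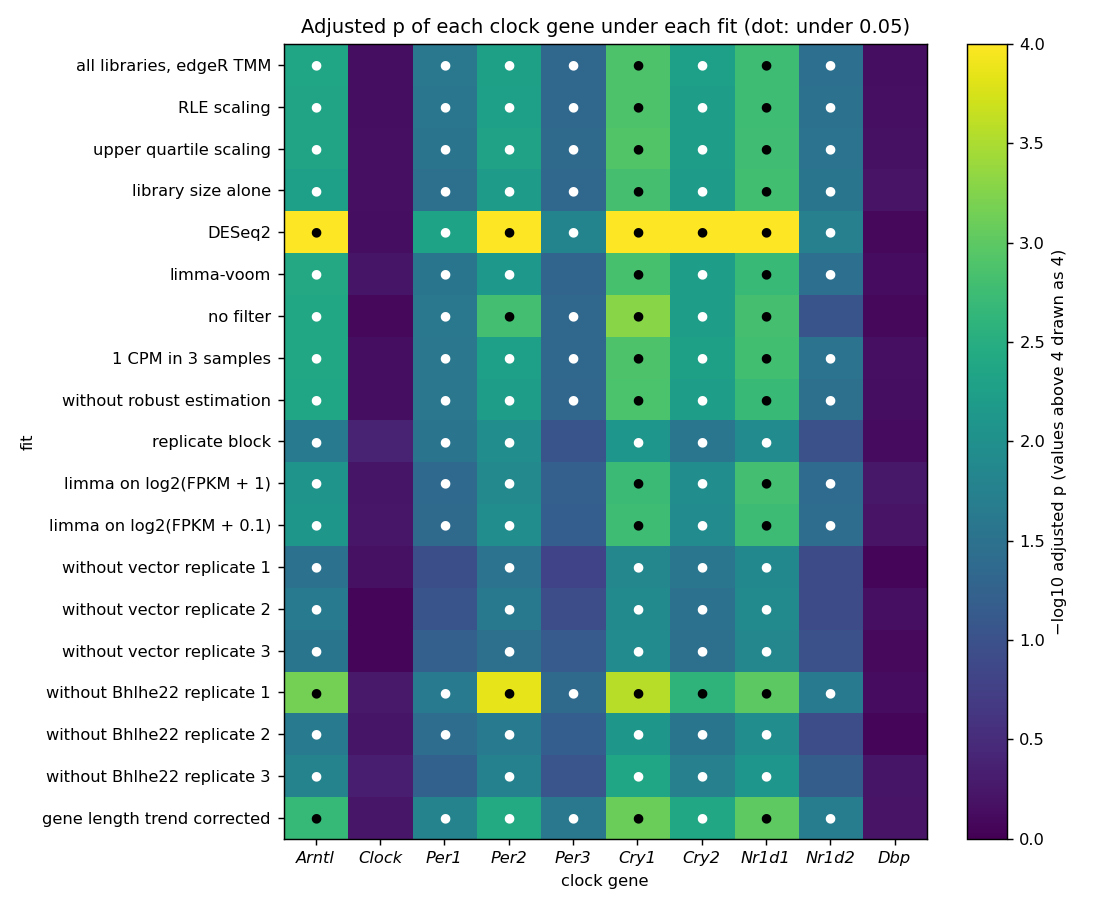
Adjusted p of each clock gene (columns) under each fit (rows), coloured as −log10 with a dot where it was under 0.05. Arntl, Per2, Cry1, Cry2 and Nr1d1 have a dot in every row, Clock and Dbp in none, and Per1, Per3 and Nr1d2 lose theirs in several fits that left out 1 library. Per3 and Nr1d2 also lose theirs with the replicate number as a block. Per3 loses its dot in limma-voom and both fits on log2 FPKM as well, and Nr1d2 with no filter.

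In all, 5 of the 10 genes, Arntl, Per2, Cry1, Cry2 and Nr1d1, were called with the same direction under all 18 alternative fits. Per1 was called in 14 of them, Nr1d2 in 11 and Per3 in 9. Clock and Dbp were called in 0 of them, and in the fit with all libraries their unadjusted edgeR p-values were 0.553 and 0.546.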

How the data were processed

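Total RNA from 6 RM-1 samples was sequenced from NEBNext Ultra libraries, per the labels' protocols. The authors deposited read counts and FPKM per gene in 1 table. The submitters' processing notes name CASAVA 1.8, HISAT2 2.1.0, StringTie 1.3.4b, edgeR and GRCm38. No source used here gives their roles, the strand setting or the annotation release. The deposited FPKM values follow from the counts, total and 1 length per gene, and were used to compare levels between genes. For each clock gene that length exceeded its annotated exon bases, so these comparisons rest on it.

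Counts were filtered with filterByExpr (minimum 10, total 15), scaled by TMM and tested with edgeR 4.0.16 (robust quasi-likelihood F test, R 4.3.3) over all 14663 genes kept. p-values were Benjamini-Hochberg adjusted with a threshold of 0.05, and intervals are 95%. Nothing says that replicates were separate transductions, so p-values measure the spread between these libraries, which may be technical. Alternatives used limma 3.58.1, DESeq2 1.42.0, other scalings and filters, log2(FPKM + 1) and log2(FPKM + 0.1), and leaving out each library. The length correction was chosen after seeing the data. Counts were simulated for this comparison over 14663 genes with 3 samples per group. The test recovered 29% of 1.5-fold (100 genes), 78% of 2-fold (50) and 88% of 4-fold changes (50), and 10.4% of its calls were false. The data had 2881 called genes, far more than were changed there, and the simulation modelled no library that stands apart. Totals were 15464709 to 25129552 counts.

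The members and lists were chosen with earlier results of these data known. Named genes are the 10 clock genes, up to 4 called genes with the smallest adjusted p per list (some genes of the lists are counted but not reported here by name), and the 3 genes with the highest Pearson r with Cry1. Gene positions are from GENCODE M21, and those of all 10 clock genes matched the deposited table.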

Additional observations from a re-analysis of the deposited data

How the results depend on the processing

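Over 18 alternatives the fold changes of the clock genes kept their direction, except that of Clock, which ran from -0.45 to 0.11 when each library was left out in turn and was above 0 only without Bhlhe22 replicate 1. Leaving out each library in turn, 715 to 2345 genes were called higher and 633 to 2337 lower. Of the clock genes 4 to 5 were called higher and 1 to 3 lower. Of the pathway genes 4 to 16 were called higher and 2 to 8 lower. The fit with the replicate number as a block had 5 higher and 1 lower clock genes, as Per3 (adjusted p = 0.091) and Nr1d2 (0.10) were not called. It had 1086 higher and 993 lower genes in all. Libraries with the same number had correlated deviations of only 0.016 to 0.029, so the numbers were not taken to pair them. Other tools, scalings and filters gave 1318 to 1749 higher and 1156 to 1624 lower genes, and the length correction, chosen after seeing the data, 1742 and 1743. Per gene and alternative, 433 results of the named genes stayed on their side of the threshold. These include results of Clock and Dbp, which were never called. Another 87 lost their call. In 1 the fold change turned direction, that of Clock, without a call. Per3 had 34 to 119 counts in a library and Rora 4 to 19. Per2, with 94 to 334 counts, was called in all 18 alternatives. The part of low counts in the lost calls was not tested. The 95% intervals of the log2 fold change were -0.37 to 0.21 for Dbp and -1.0 to 0.59 for Clock. With 3 libraries a group, 1 of which stands apart, these genes are thus not shown to be unchanged. The simulation, which recovered 29% of 1.5-fold changes, changed far fewer genes than were called in the data and modelled no such library. Its recovery may therefore differ from that in the data.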
